A study of Mus musculus with 10 samples.

Results

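Eph receptors and their ephrin ligands were described here through the 9 family genes Ephb2, Ephb3, Ephb4, Ephb6, Epha2, Epha4, Efna1, Efnb1 and Efnb2, which are 6 receptors and 3 ligands out of 31053 genes counted. Their unique molecular identifiers (UMIs, each standing for 1 captured transcript) were summed per library and per annotated cell class. Mouse intestinal organoids and colonic crypts were profiled by droplet single-cell RNA sequencing in 10 libraries. ENR-organoids (3 libraries, passages 2, 7 and 3) came from crypts of the proximal small intestine and received Noggin, R-Spondin 1 and EGF. The medium of the Hyper-organoids (3 libraries, passages 1, 6 and 3) held VPA, which blocks histone deacetylases, EPZ6438, which blocks the methyltransferase EZH2, and also FGF2, EGF, Pexmetinib, LDN193189, GSK-3 Inhibitor XV and conditioned medium with R-Spondin 1. VPA and EPZ6438 were both missing from the otherwise equal medium of the -VE-organoids (2 libraries, passages 1 and 6). In replicates 1 and 2 the Hyper- and -VE-organoids were derived from ENR-organoids, and in replicate 3 from primary crypts, without a -VE-organoid library. Colonic crypts of normal and of dextran sulfate sodium (DSS) treated mice gave 1 library each. Per the study's methods the mice for organoids were 6 to 12 weeks old, without a strain given for these libraries, and those for colitis were 8-week-old females, but no label ties a mouse to a library. The organoid labels name no animal, so p-values measure the spread between these cultures, which may be technical.

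Eph receptors are receptor tyrosine kinases of the cell surface, and ephrins are their membrane-bound ligands, so that signals pass between touching cells and in both directions. EphA receptors mostly bind the lipid-anchored ephrin-A ligands, and EphB receptors the transmembrane ephrin-B ligands. In the intestinal epithelium EphB receptors are known as Wnt targets of the crypt, ephrin-B ligands mark the cells that leave it, and repulsion between both sides keeps proliferating and differentiated cells in place. Ephb2 and Ephb3 encode the receptors best studied in crypts, Ephb4 encodes the preferred receptor of ephrin-B2, and Ephb6 encodes a receptor without kinase activity.

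The sequences before the start sites were searched for the TCF/LEF motif, through which Wnt signals act on DNA, because the receptors are known as Wnt targets. RefSeq promoter windows of GRCm38.p6, each from 250 bases before to 50 bases after a start, were found for all 9 members (10 windows, 2 of them for Efna1). None of the 10 windows held CTTTGAT or its reverse complement ATCAAAG, and 3.73% of all 32851 windows did. At such a share 10 windows are too few to tell the members from other genes, and sites outside the windows were not searched. CG dinucleotides ranged from 10 (Epha2) to 35 (Efnb2) per member window, against a median of 7 over all windows. The upstream stretches of Ephb6 and Epha2 are shown, since Ephb6 had the largest difference between the media and the second highest number of CG, 34 in its window, while Epha2 had the lowest. Capitals mark CG dinucleotides, both stretches are on the plus strand and are written 5′ to 3′, and the one of Ephb6 ends before the first annotated base of the gene.
Ephb6 chr6:41605261-41605481: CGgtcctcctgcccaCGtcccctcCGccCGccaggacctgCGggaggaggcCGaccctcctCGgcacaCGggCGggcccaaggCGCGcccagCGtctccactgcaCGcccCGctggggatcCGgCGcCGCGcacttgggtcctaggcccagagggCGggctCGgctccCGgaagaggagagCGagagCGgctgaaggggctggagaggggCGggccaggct
Epha2 chr4:141300971-141301220: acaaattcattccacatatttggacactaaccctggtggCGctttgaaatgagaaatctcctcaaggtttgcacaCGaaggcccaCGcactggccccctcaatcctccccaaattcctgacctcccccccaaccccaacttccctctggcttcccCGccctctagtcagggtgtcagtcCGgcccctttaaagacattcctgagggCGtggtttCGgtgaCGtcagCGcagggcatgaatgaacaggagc
The printed 221 bases of Ephb6 held 24 CG dinucleotides, and the printed 250 bases of Epha2 held 9. At least as many CG as in the window of Ephb6 were found in 7.73% of all windows, and at least as many as in that of Epha2 in 43.5%. In GRCm38 the annotated genes lie at chr6:41605482-41620509 for Ephb6 and chr4:141301240-141329384 for Epha2, both on the plus strand. The other members lie at chr4:136647539-136835988 (Ephb2, minus strand), chr16:21204755-21223305 (Ephb3, plus), chr5:137350109-137378669 (Ephb4, plus), chr1:77367185-77515088 (Epha4, minus), chr3:89271733-89281142 (Efna1, minus), chrX:99136130-99148991 (Efnb1, plus) and chr8:8617434-8661242 (Efnb2, minus).

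The 8 organoid libraries held 89124015 to 170019527 UMIs in the cells kept by the authors, and the colonic libraries 19906845 (normal) and 32397122 (DSS). Levels are given as CPM (counts-per-million, relative to the kept UMIs of the library or class sum), and no length correction was applied since the 3′ assay yields 1 UMI per captured transcript. No pair of libraries shared more than 5 kept cell barcodes. The class names are those deposited by the authors (stem, transit amplifying or TA, Paneth, goblet, enteroendocrine, enterocyte progenitor, enterocyte, revival stem, tuft). Their defining markers were highest in their own class, except Ascl2, Olfm4 and Cd44 of the stem class, Ube3c of the TA class, Cfhr2 of the progenitors, Tff3 and Muc2 of the goblet class and Basp1 of the revival stem class.

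The first question was how the members were distributed from crypt to villus classes under the control medium. In ENR-organoids the 3 ligands and Epha2 were higher in enterocytes than in the stem class in every library, and Ephb2, Ephb3, Ephb4 and Epha4 were lower in enterocytes in every library. Ephb6 had no UMI in either class. The classes were clustered on these same cells, so these values are a description and no test was made.

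Among the ligands, Efnb2, which encodes ephrin-B2, had the widest spread. Its level in enterocytes of ENR-organoids was 84.1, 76.2 and 64.3 CPM in replicates 1, 2 and 3, against 7.90, 7.38 and 8.25 CPM in the stem class, a log2 ratio of the means of 3.25. Goblet cells (19.2 ± 4.4 CPM, SD, n = 3), enterocyte progenitors (18.3 ± 0.62) and enteroendocrine cells (15.1 ± 5.7) lay between, with overlapping ranges. Stem, TA (7.49 ± 0.80) and Paneth cells (5.74 ± 3.7) were lowest and overlapped as well. The enterocytes of all 3 libraries stood apart from every other class.

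Efna1, the gene of ephrin-A1, was also highest in enterocytes, with a smaller relative span. Its stem class lay above the enteroendocrine and goblet cells, whereas that of Efnb2 lay below them. Enterocytes held 149, 161 and 113 CPM, and enterocyte progenitors 48.2, 52.3 and 51.8 CPM. The stem class held 43.8, 43.7 and 40.7 CPM, and the Paneth class was lowest with 19.1, 18.2 and 20.6 CPM. Enterocytes, progenitors and stem cells did not overlap with their neighbours in the order, whereas TA, enteroendocrine and goblet cells (means between 32.8 and 36.4 CPM) did with each other. Efnb1, the gene of ephrin-B1, was at 58.8, 59.6 and 61.04 CPM in enterocytes and at 48.6, 48.0 and 48.6 CPM in their progenitors. TA, goblet, stem, enteroendocrine and Paneth cells (means of 36.1 down to 14.6 CPM) overlapped from one to the next. For Efnb1 the log2 ratio of enterocytes to the stem class was 0.83, and for Efna1 it was 1.72.

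Ephb3 showed the opposite order and the strongest decline among the receptors. It was at 2.11, 1.80 and 1.97 CPM in enterocytes against 26.3, 25.5 and 25.4 CPM in the stem class, a log2 ratio of -3.72. Enteroendocrine cells exceeded all other classes with 73.0, 101 and 70.9 CPM. Paneth (31.9 ± 8.9), goblet (26.1 ± 2.4), stem and TA cells (24.5 ± 1.5) overlapped, enterocyte progenitors lay below them at 10.9 ± 1.6 CPM, and enterocytes lay below the progenitors. Ephb2 was flatter, with 29.8 ± 4.0 CPM in enterocytes and 46.7 ± 4.4 CPM in the stem class (log2 ratio -0.65). Enteroendocrine, TA, progenitor and stem cells overlapped for Ephb2, and goblet, enterocyte and Paneth cells formed a lower group. For Ephb4 each class overlapped with the next in order, from 36.9 ± 8.5 CPM in the stem class to 7.80 ± 1.6 CPM in Paneth cells. The stem class (27.2 to 42.8 CPM) and enterocytes (10.9 to 20.6 CPM) were apart all the same. Such ranges do not pair the classes of the same library.

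The EphA receptors differed from each other. Epha4 was at 0.740 ± 0.31 CPM in enterocytes and 5.53 ± 1.3 CPM in the stem class (log2 ratio -2.90), with enteroendocrine cells at 6.21, 18.3 and 10.3 CPM. Epha2 was at 14.1 ± 2.8 CPM in enterocytes and 8.13 ± 1.6 CPM in the stem class (log2 ratio 0.80), and was lowest in Paneth cells with 2.94, 1.07 and 2.75 CPM. With every cell thinned to 10000 UMIs, 7 of the 8 members with a value kept enterocytes and the stem class apart in all libraries. The exception was Ephb4, whose ranges then overlapped.

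**Figure D1:**
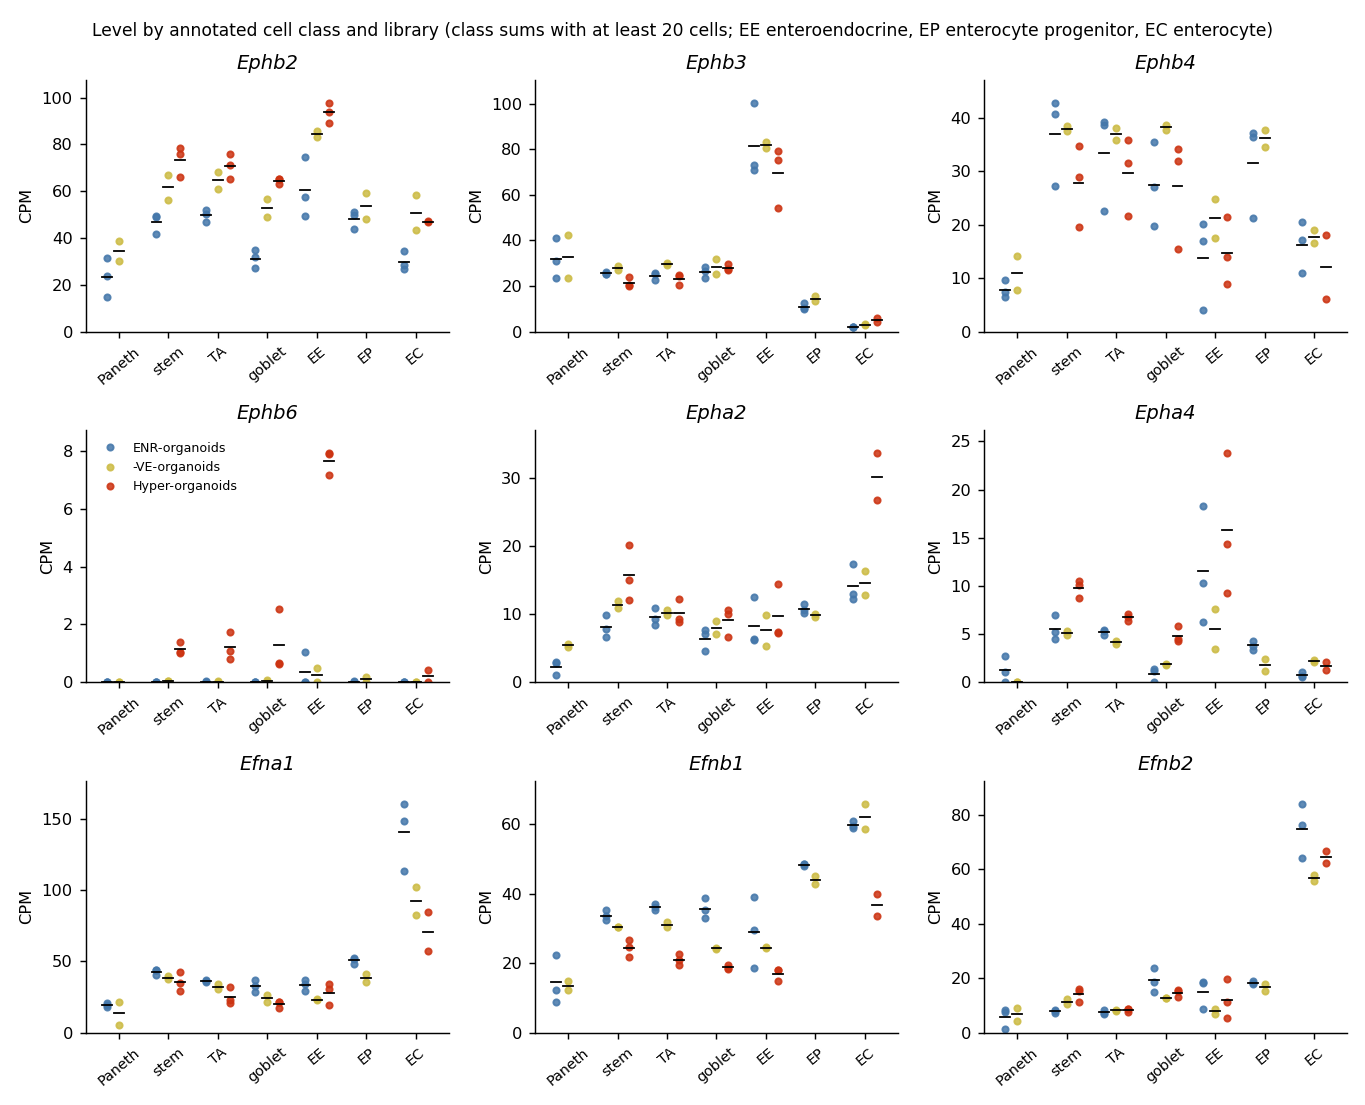
CPM of each member (y axis, from 0) by annotated class (x axis) in ENR-, -VE- and Hyper-organoids. Each point is 1 library whose class sum held at least 20 cells and bars are group means. The 3 ligands are highest at the right, in enterocytes, Ephb3 is lowest there in ENR-organoids, and Ephb6 points leave 0 mainly in Hyper-organoids, up to 7.93 CPM in enteroendocrine cells.

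Summed over each side of the ephrin-B system, the 4 EphB receptors gave 109 ± 13 CPM in the stem class of ENR-organoids and 48.0 ± 8.7 CPM in enterocytes. The 2 ephrin-B ligands gave 41.6 ± 1.8 CPM in the stem class and 135 ± 8.8 CPM in enterocytes. In Hyper-organoids the sums were 124 ± 15 and 38.6 ± 1.1 CPM in the stem class, and 64.2 ± 9.5 and 101 ± 7.7 CPM in enterocytes (n = 2, since replicate 1 held fewer than 20 enterocytes). Receptors thus exceeded ligands in the stem class and ligands exceeded receptors in enterocytes under both media.

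The order of classes in Hyper-organoids could be read for fewer classes, because 14 Paneth cells and 8 enterocyte progenitors were left in them. Enterocytes again held the highest Efna1 (84.4 and 57.5 CPM in replicates 2 and 3), Efnb1 (33.6 and 40.1 CPM) and Efnb2 (62.3 and 66.8 CPM) among the classes with at least 2 libraries. Ephb3 was at 5.74 and 4.11 CPM in these enterocytes, below 20.0 to 23.8 CPM in the stem class and 54.3 to 79.1 CPM in enteroendocrine cells.

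The second question was how the medium changed the members over all cells. Between Hyper- and ENR-organoids Efnb1 fell by at least 2-fold, 4 further members differed by less, and Ephb6, nearly without UMIs in ENR-organoids, was higher in Hyper-organoids. A gene was called when its adjusted p from edgeR's quasi-likelihood test was under 0.05 with a fold of at least 2. All 9 members passed the filter on low counts, but Ephb6 only through the Hyper-organoids. For a gene that 1 medium alone lets through, the filter by itself favours a difference. Ephb6 is therefore described by its UMIs without a test, and genes let in by 1 medium alone were left out of the counts. By the rule 1 of the other 8 members was called against 18% of 14697 genes, and without the minimum fold 5 of 8 (2 higher, 3 lower) against 55%. The median log2 fold change of the 8 members was -0.04, and that of the 14697 genes was -0.05. In sums over all cells, fewer cells of a class and less RNA per cell cannot be told apart.

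Ephb6 had 1, 1 and 1 UMI in the ENR-organoids, 6 and 4 UMIs in the -VE-organoids, and 160, 247 and 93 UMIs in the Hyper-organoids. These are levels of 0.0103, 0.00814 and 0.0112 CPM, of 0.0493 and 0.0235 CPM, and of 1.16, 1.74 and 1.03 CPM. The Hyper-organoid libraries were far above all others, although the gene stayed at a low level. The pooled ratio of Hyper- to ENR-organoids was 139 (95% exact interval 47.3 to 676, counting error only).

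Efnb1 was at 40.4, 40.9 and 43.4 CPM in ENR-organoids, 31.9 and 32.9 CPM in -VE-organoids, and 20.2, 24.2 and 22.4 CPM in Hyper-organoids. The 3 groups did not overlap. The log2 fold change of Hyper- over ENR-organoids was -1.03 ± 0.08 (SE, adjusted p = 2.09e-05), close to the minimum fold. With library totals in place of the scaling factors it was -0.90, with cells thinned to 10000 UMIs it was -0.98, without Hyper-organoid replicate 1 it was -0.96, and without ENR-organoid replicate 3 it was -0.96, so that the call was lost there while the direction was kept.

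Efna1 was at 49.2, 54.8 and 49.8 CPM in ENR-organoids, 38.4 and 34.0 CPM in -VE-organoids, and 25.6, 36.1 and 26.7 CPM in Hyper-organoids. Replicate 2 was the highest of the Hyper-organoids and overlapped with the -VE-organoids but not with the ENR-organoids. The log2 fold change was -0.92 ± 0.13 (adjusted p = 0.000480), and -1.09 without Hyper-organoid replicate 2, which is past 2-fold. Efnb2 was at 16.5, 18.0 and 18.7 CPM in ENR-organoids, 12.6 and 11.7 CPM in -VE-organoids, and 11.8, 10.3 and 13.0 CPM in Hyper-organoids. The latter groups overlapped, and both lay below the ENR-organoids. Its log2 fold change was -0.73 ± 0.10 (adjusted p = 0.000536) for Hyper- against ENR-organoids.

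Ephb2 was at 48.9, 47.2 and 42.5 CPM in ENR-organoids, 57.8 and 66.4 CPM in -VE-organoids, and 72.6, 76.1 and 66.1 CPM in Hyper-organoids. All libraries of the other media exceeded those of the ENR-organoids, with a log2 fold change of 0.51 ± 0.07 for Hyper- over ENR-organoids (adjusted p = 0.000529). Epha4 was at 4.34, 4.14 and 4.35 CPM in ENR-organoids, 4.33 and 4.01 CPM in -VE-organoids, and 8.18, 7.27 and 8.55 CPM in Hyper-organoids. Only the Hyper-organoids stood apart for Epha4, with a log2 fold change of 0.78 ± 0.10 against ENR-organoids (adjusted p = 0.000280).

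The other 3 receptors did not pass the test between Hyper- and ENR-organoids, although without Hyper-organoid replicate 2 both Ephb3 (0.24, adjusted p = 0.0326) and Epha2 (0.34, adjusted p = 0.0242) passed without a minimum fold, as did Ephb3 with library totals (0.29, adjusted p = 0.0374). Ephb3 was at 20.9, 19.6 and 16.9 CPM in ENR-organoids, 27.6 and 28.3 CPM in -VE-organoids, and 25.4, 20.8 and 23.8 CPM in Hyper-organoids, so the outer groups overlapped by a narrow margin and the -VE-organoids were highest (Hyper- over ENR-organoids 0.16 ± 0.09, adjusted p = 0.145). Epha2 was at 10.1, 10.51 and 9.36 CPM, 10.2 and 11.1 CPM, and 15.1, 10.47 and 12.4 CPM (0.22 ± 0.12, adjusted p = 0.172). Ephb4 was at 36.3, 35.6 and 20.8 CPM, 35.0 and 36.7 CPM, and 30.2, 34.8 and 19.9 CPM. Both replicate 3 libraries were low for Ephb4, and its log2 fold change of -0.25 ± 0.23 (adjusted p = 0.392) had an SE of 0.05 and an adjusted p of 0.00497 with the culture series as a block.

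**Figure D2:**
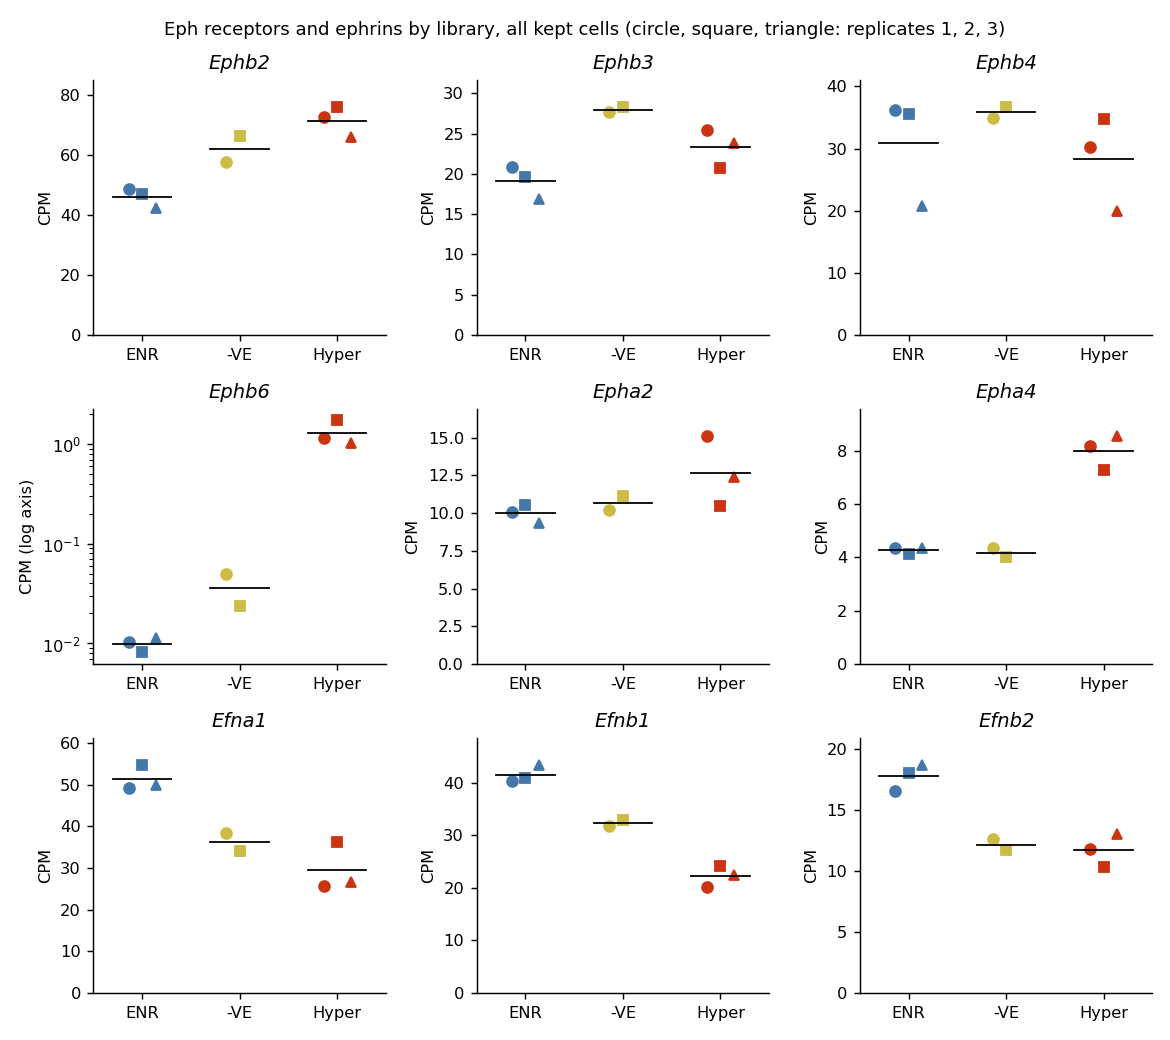
CPM of each member over all kept cells (y axis, from 0, on a log axis for Ephb6) in ENR-, -VE- and Hyper-organoids (x axis). Symbols are libraries and bars group means. Ephb6 in Hyper-organoids (1.03 to 1.74 CPM) lies above the other groups, Efnb1 steps down from 41.6 to 32.4 to 22.3 CPM, and the replicate 3 triangles of Ephb4 lie low at 20.8 and 19.9 CPM.

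The comparison of Hyper- with -VE-organoids concerned VPA and EPZ6438. It shares the Hyper-organoids with the comparison above, so its values are given beside those and no overlap was computed. The pooled ratio of the Ephb6 UMIs was 39.3 (95% exact interval 21.2 to 82.5). Of the other 8 members 0 were called by edgeR and 0 by DESeq2, with 4 at an unadjusted p under 0.05 by either, against 14.1% of the 14697 genes. Without the minimum fold 4 of 8 differed (1 higher, 3 lower) against 45.7%. These were Epha4 (0.80 ± 0.11, adjusted p = 0.000817), Efnb1 (-0.68 ± 0.09, adjusted p = 0.000544), Efna1 (-0.43 ± 0.14, adjusted p = 0.0362) and Ephb3 (-0.40 ± 0.10, adjusted p = 0.00996). Efna1 missed the threshold in 11 of 16 alternatives (adjusted p up to 0.211, without -VE-organoid replicate 1) and Ephb3 missed it in 3 (up to 0.0936, with thinned cells). Ephb2 (0.07), Epha2 (0.11), Efnb2 (-0.18) and Ephb4 (-0.48) had adjusted p between 0.161 and 0.543, and with the culture series as a block Efnb2 (-0.26, adjusted p = 0.0454) and Ephb4 (-0.28, adjusted p = 0.00754) passed without a minimum fold.

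Between -VE- and ENR-organoids 0 of the 8 members were called by edgeR and 0 by DESeq2, against 2.62% of the genes, while 5 had an unadjusted p under 0.05. Without the minimum fold 4 of 8 differed against 8.44%. Ephb3 (0.56 ± 0.10, adjusted p = 0.0151) and Ephb2 (0.44 ± 0.08, adjusted p = 0.0191) were higher in -VE-organoids, and Efnb2 (-0.54 ± 0.12, adjusted p = 0.0314) and Efnb1 (-0.35 ± 0.09, adjusted p = 0.0475) were lower. None of these 4 differences held under all 16 alternatives, and without -VE-organoid replicate 2 all 4 missed the threshold, with adjusted p of 0.107 for Ephb3, 0.165 for Ephb2, 0.199 for Efnb2 and 0.212 for Efnb1. Efna1 had a log2 fold change of -0.49 ± 0.14 (adjusted p = 0.0801). The 10 UMIs of Ephb6 in -VE-organoids against 3 in ENR-organoids gave a ratio of 3.53 (95% exact interval 0.910 to 20.0, counting error only). This interval includes no difference, although the libraries did not overlap (0.0235 and 0.0493 CPM against at most 0.0112 CPM). The UMIs were too few to decide at this depth.

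The medium also changed the class shares. The share of enterocytes among the cells was 9.78, 13.1 and 12.4% for ENR-organoids, 6.23 and 5.68% for -VE-organoids, and 0.249, 1.65 and 1.06% for Hyper-organoids. The stem class made up 14.7, 12.2 and 9.75%, 28.2 and 24.3%, and 40.04, 42.04 and 44.07%. To set the levels beside the class shares, each class was held at its ENR-organoid level and only its share of the UMIs was changed. These UMI shares differ from the shares of cells, with 35.9, 36.5 and 40.2% for the stem class of Hyper-organoids. Classes without an ENR-organoid level from at least 20 cells in a library were left out. The other classes held at least 98.3% of the UMIs in every library. For Efnb2 the shares alone gave a log2 ratio of -0.98 for Hyper- to ENR-organoids where -0.60 was measured in plain CPM, and for -VE- to ENR-organoids they gave -0.55 where -0.55 was measured, although the class levels themselves moved in both directions (stem 10.4 to 12.2 against 7.38 to 8.25 CPM, enterocytes 55.7 to 58.0 against 64.3 to 84.1 CPM, goblet 12.6 to 12.9 against 15.1 to 23.9 CPM). Between these media the other members did not coincide, with -0.17 from the shares and -0.36 measured for Efnb1, -0.24 and -0.50 for Efna1, 0.01 and 0.43 for Ephb2, 0.33 and 0.55 for Ephb3, and 0.16 and -0.04 for Epha4. Between Hyper- and ENR-organoids, for Efnb1 they gave -0.24 where -0.90 was measured, and for Efna1 -0.37 where -0.80 was measured. For Ephb2 they gave 0.04 where 0.63 was measured, and for Epha4 0.28 where 0.90 was measured. For Ephb3 the shares gave 0.44, more than the measured 0.29. This calculation is a description with no test, and was chosen after the data were seen.

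**Figure D3:**
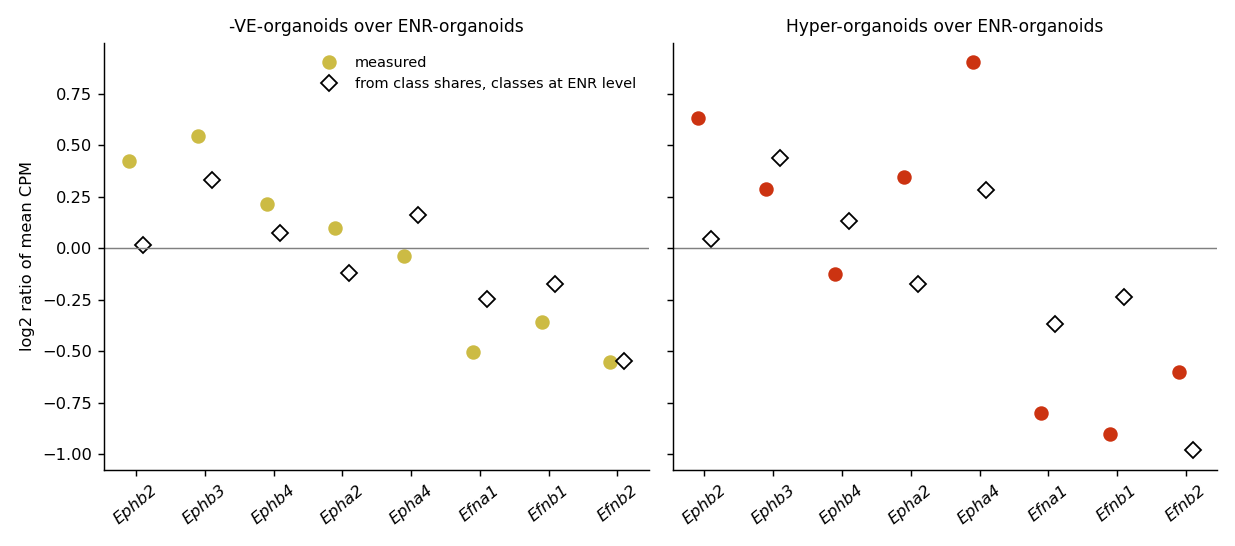
Log2 ratio of mean CPM (y axis) of -VE-organoids (left) and Hyper-organoids (right) over ENR-organoids for 8 members (x axis, without Ephb6). Filled points are measured, and diamonds are computed from the UMI shares of the classes with each class held at its ENR-organoid level. Point and diamond lie together for Efnb2 on the left (-0.55), where class levels moved both ways, and lie far apart for Efnb1 on the right (-0.90 and -0.24).

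The third question was whether the members changed within a class. A class can hold unlike subsets under each medium, since the paper found the Lgr5-positive stem cells of Hyper- and ENR-organoids in separate clusters. A shift of subsets within a class was not tested. Fits were made for the stem, TA, goblet and enteroendocrine classes, which held at least 20 cells in all 8 organoid libraries. Ephb6 passed the filter only through the Hyper-organoids in the stem, TA and enteroendocrine classes, and Epha4 did so in the goblet class, so these are given by their counts or levels without a test, and genes let in by 1 medium alone were again left out. In the stem class 0 of 8 members were called between Hyper- and ENR-organoids by edgeR and 0 by DESeq2, against 12.4% of 12679 genes, while without the minimum fold 8 of 8 differed (4 higher, 4 lower) against 47%. Ephb6 had 0 UMIs in the 3 ENR-organoid libraries and 52, 73 and 36 UMIs in the Hyper-organoids. Its pooled level was at least 12.8-fold higher, taking a floor of 3 counts over the ENR-organoid group.

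Efnb2 was higher in the Hyper-organoid stem class, with 16.05, 11.29 and 15.1 CPM against 7.90, 7.38 and 8.25 CPM (log2 fold change 0.75 ± 0.16, adjusted p = 0.00372), whereas over all cells it was lower. Epha2 was at 20.2, 12.02 and 14.97 CPM against 7.82, 9.89 and 6.68 CPM (0.83 ± 0.20, adjusted p = 0.00727). Epha4 was at 10.04, 8.78 and 10.501 CPM against 5.19, 4.46 and 6.94 CPM (0.73 ± 0.17, adjusted p = 0.00664). The groups did not overlap for any of these 3 genes, though with thinned cells Efnb2 (adjusted p = 0.0597) and Epha4 (adjusted p = 0.0722) missed the threshold. Ephb2 was higher as well (0.54 ± 0.09, adjusted p = 0.000900).

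Efnb1 was lower in the stem class of Hyper-organoids, with 21.8, 26.7 and 24.8 CPM against 33.5, 32.4 and 35.2 CPM (-0.57 ± 0.09, adjusted p = 0.000769). Ephb3 was at 23.8, 20.0 and 20.3 CPM against 26.3, 25.5 and 25.4 CPM (-0.38 ± 0.08, adjusted p = 0.00383). Both pairs of groups were separate, and for Ephb3 the sign was opposite to that over all cells. Ephb4 (-0.53 ± 0.20, adjusted p = 0.0463) and Efna1 (-0.37 ± 0.12, adjusted p = 0.0310) were near the threshold, missed it in 9 and 11 of 16 alternatives, and their libraries overlapped between the media. This overlap sets libraries of different culture series against each other, and with the culture series as a block both passed.

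In the TA class 0 of 8 members were called by edgeR and 0 by DESeq2, with 4 at an unadjusted p under 0.05, against 15% of genes, and 4 of 8 differed without the minimum fold against 53.3%. Ephb6 had 1, 0 and 0 UMIs in ENR-organoids and 84, 137 and 36 UMIs in Hyper-organoids (pooled ratio 172, 95% exact interval 30.7 to 6839). Efnb1 was at 19.4, 22.6 and 20.9 CPM against 36.1, 35.2 and 37.0 CPM (-0.89 ± 0.07, adjusted p = 1.58e-05). Efna1 (-0.64 ± 0.14, adjusted p = 0.00409) was lower too, and Ephb2 (0.40 ± 0.06, adjusted p = 0.000876) and Epha4 (0.27 ± 0.10, adjusted p = 0.0400, above 0.05 in 9 of 16 alternatives) were higher. Efnb2 (0.05), Epha2 (-0.02), Ephb3 (-0.19) and Ephb4 (-0.28) did not pass.

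In the goblet class 1 of 7 members was called against 7.95% of genes, with 3 of 7 differing without the minimum fold against 27.2%. Epha4 was at 0, 1.37 and 1.17 CPM in ENR-organoids and at 4.26, 5.82 and 4.44 CPM in Hyper-organoids. Efnb1 fell from 38.7, 35.3 and 32.9 CPM to 18.5, 19.5 and 18.4 CPM (-1.02 ± 0.11, adjusted p = 4.41e-05). Neither pair of groups overlapped. With cells thinned to 10000 UMIs Efnb1 was at -0.97 and so no longer past 2-fold. Ephb2 was at 63.3, 65.4 and 65.1 CPM against 27.0, 34.7 and 31.8 CPM, a log2 fold change of 0.94 ± 0.11 (adjusted p = 7.31e-05) and so just under 2-fold. In plain CPM the means of Ephb2 (64.6 against 31.1) were past 2-fold and those of Efnb1 (18.8 against 35.6) were not. Which of these genes passed the minimum fold thus depended on the scaling factors. Efna1 was lower (-0.79 ± 0.14, adjusted p = 0.00105). Ephb6 had too few UMIs for a fit here, 0 in ENR-organoids against 4, 16 and 3, which makes it at least 5.37-fold higher by the same floor.

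In the enteroendocrine class 0 of 8 members were called by edgeR and 0 by DESeq2, with 2 at an unadjusted p under 0.05, against 4.88% of genes, and 1 of 8 differed without the minimum fold against 12%. Ephb6 had 0, 0 and 1 UMIs in ENR-organoids and 19, 17 and 15 UMIs in Hyper-organoids (pooled ratio 28.0, 95% exact interval 4.81 to 1128). In Hyper-organoids its level was 7.16, 7.89 and 7.93 CPM in this class, above its mean of 0.205 to 1.27 CPM in the enterocyte, stem, TA and goblet classes. The 14 Paneth cells and 8 enterocyte progenitors held 0 UMIs of it. Ephb2 was at 89.3, 97.9 and 94.1 CPM against 57.5, 74.5 and 49.3 CPM (0.70 ± 0.14, adjusted p = 0.00766, and 0.0636 in culture series 2 and 6 only). Ephb3 did not pass (-0.15 ± 0.18, adjusted p = 0.635) and stayed high in both media.

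**Figure D4:**
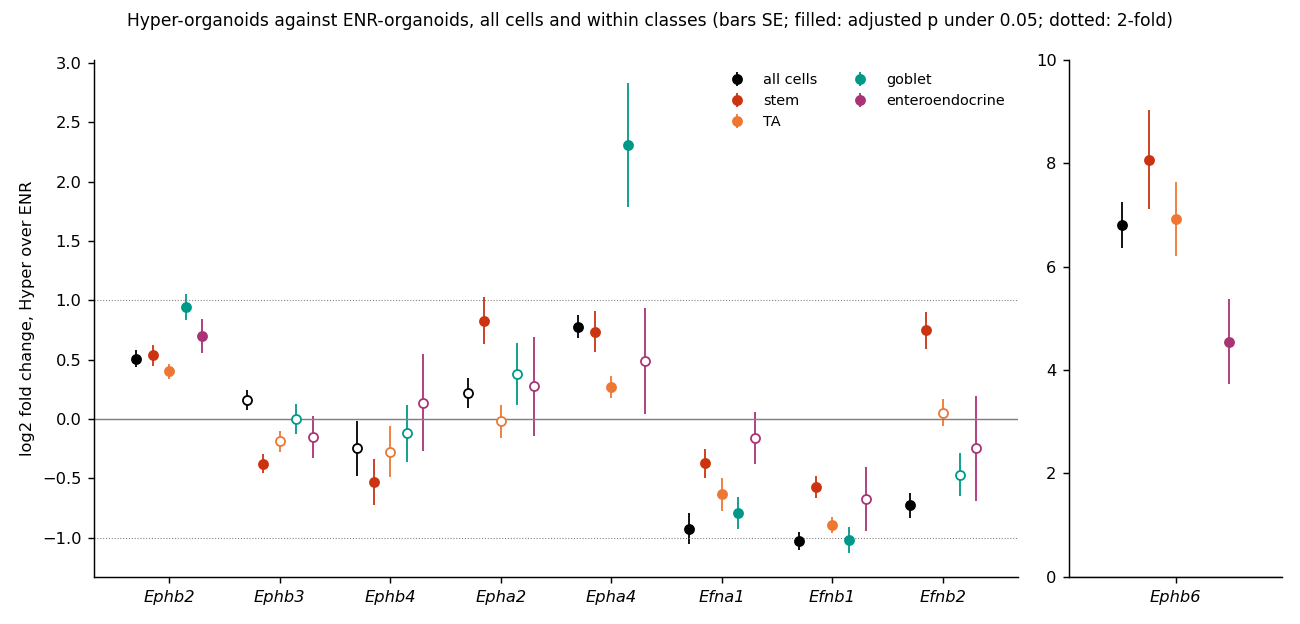
Log2 fold change of Hyper- over ENR-organoids (y axis) with its SE for each member (x axis), over all cells and within 4 classes, with Ephb6 on its own scale. Filled points have an adjusted p under 0.05, which is no support for Ephb6 or for goblet Epha4 since the Hyper-organoids alone let them through the filter, and dotted lines mark 2-fold. Efnb2 is at 0.75 in the stem class and -0.73 over all cells, and Efnb1 lies below 0 in every fit.

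Whether the change between Hyper- and ENR-organoids differed between classes was tested as an interaction, with the library as a block. Between the TA and the stem class no member passed 2-fold by edgeR (0 of 8 without Ephb6, also 0 by DESeq2, with 7 at an unadjusted p under 0.05) against 1.19% of genes, and 6 of 8 differed without the minimum fold against 16.5%. The change of Epha2 was lower in the TA class by -0.85 ± 0.11 on the log2 scale (adjusted p = 2.28e-05) and that of Efnb2 by -0.68 ± 0.12 (adjusted p = 0.000636). Efnb1 (-0.33), Epha4 (-0.51), Efna1 (-0.26) and Ephb4 (0.23) had smaller differences. By DESeq2 4 of 8 differed, without Epha4 (adjusted p = 0.0952) and Efna1 (adjusted p = 0.109). Of the 6 only Epha2 held in all 15 alternatives run, and with thinned cells the other 5 missed the threshold. Between the goblet and the stem class 1 of 8 was called against 4.01%, which was Efnb2 with -1.24 ± 0.18 (adjusted p = 0.000293, but -0.97 and 0.0682 with cells thinned to 10000 UMIs), and 2 of 8 differed without the minimum fold against 15.3%, the other being Efnb1 (-0.49 ± 0.13, adjusted p = 0.0157, lost in 3 of 15 alternatives). Between the enteroendocrine and the stem class 0 of 8 passed by edgeR or DESeq2, with 2 at an unadjusted p under 0.05 by edgeR, against 7.42% of genes at 2-fold and 11.6% at any fold. Efnb2 had a difference of -1.07 ± 0.37 there (adjusted p = 0.0815, and -1.34 and 0.0488 with thinned cells).

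Against -VE-organoids the pooled ratio of the Ephb6 UMIs was 39.97 in the stem class (161 against 2 UMIs, 95% exact interval 10.9 to 333), 72.7 in the TA class (257 against 3, 24.6 to 355) and 28.4 in the enteroendocrine class (51 against 1, 4.87 to 1143). No other member was called in these classes by edgeR or DESeq2, against 10.7, 12.1 and 2.48% of genes, with 4, 4 and 1 of 8 at an unadjusted p under 0.05. In the goblet class 0 of 7 were called by edgeR and 0 by DESeq2, with 2 at an unadjusted p under 0.05, against 5.02%. Without the minimum fold 3 of 8 differed in the stem class against 40.9% of genes. Epha4 was higher there in Hyper-organoids (0.83 ± 0.18, adjusted p = 0.00520), and Ephb3 (-0.50 ± 0.08, adjusted p = 0.00140) and Efnb1 (-0.42 ± 0.10, adjusted p = 0.00642, but 0.0900 with thinned cells) were lower. Efnb2 (0.21 ± 0.16, adjusted p = 0.304) and Epha2 (0.36 ± 0.20, adjusted p = 0.177) did not pass in that class. In the TA class 4 of 8 differed against 44.5%. Epha4 (0.59, adjusted p = 0.00229) was higher, and Efnb1 (-0.69, 0.000183), Ephb3 (-0.48, 0.00330) and Efna1 (-0.47, 0.0308, lost in 8 of 16 alternatives) were lower. In the goblet class 1 of 7 differed against 16.5%, Efnb1 (-0.42, 0.0255, lost in 10 of 16). In the enteroendocrine class 0 of 8 did against 3.66%.

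Between -VE- and ENR-organoids no pair of member and class was called by edgeR or DESeq2, against 0.544% of genes in the stem class, 1.1% in the TA class, 1.14% in the goblet class and 0.205% in the enteroendocrine class. At an unadjusted p under 0.05 there were 2, 4, 4 and 1 members in the same order. Without the minimum fold 2 of 7 members differed in the goblet class against 2.33% of genes and 1 of 8 in the TA class against 3.42%. In the stem and enteroendocrine classes 0 of 8 did, against 1.68 and 0.215%. Ephb2 was higher in the goblet (0.71) and TA (0.39 ± 0.07, adjusted p = 0.0287) classes and Efnb1 was lower in the goblet class (-0.61). All 3 missed the threshold without -VE-organoid replicate 2 and with thinned cells.

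UMIs of Ephb6 in Hyper-organoids were found in several classes. The part of RNA from outside the cells was not estimated. Of its 500 UMIs there, 51.4% were in the TA class, which held 46.9% of the cells, and 32.2% in the stem class, which held 41.8%. Enteroendocrine cells held 10.2% of the Ephb6 UMIs in 3.49% of the cells. Depth differed between classes, and of all kept UMIs in replicates 1, 2 and 3 the TA class held 56.9, 55.2 and 49.6%. The stem class held 35.9, 36.5 and 40.2% of them, and enteroendocrine cells 1.92, 1.52 and 2.10%. In replicates 1, 2 and 3 a UMI of Ephb6 was found in 17.5, 14.95 and 13.95% of enteroendocrine cells at median depths of 24908, 18209 and 22108 UMIs, and in 4.44, 4.59 and 4.00% of stem cells at 42140, 33335 and 40306 UMIs. Enterocytes, which had the lowest level among the classes with at least 20 cells in a library, held such a UMI in 1 of 58 cells (1.72%) of replicate 2 at a median depth of 42736 UMIs, and the 21 enterocytes of replicate 3 were too few to compare. With cells thinned to 10000 UMIs the shares were 6.59, 7.00 and 7.69% in enteroendocrine cells and 1.25, 1.71 and 0.942% in stem cells, so the order was kept at equal depth.

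Revival stem cells, a rare class marked by Clu, held 45 cells in Hyper-organoids, 25 in -VE-organoids and 0 in ENR-organoids, too few for a test over libraries. Pooled over libraries, Epha2 was at 43.0 CPM in the Hyper-organoids (95% exact Poisson interval 35.2 to 52.0, counting error only) and 80.9 CPM in the -VE-organoids (63.7 to 101). The stem class held 15.7 and 11.4 CPM of Epha2 in the same groups. Efnb2 was at 36.9 and 45.8 CPM against 14.0 and 11.2 CPM, and Epha4 at 16.4 and 51.1 CPM against 9.69 and 5.12 CPM. Ephb2 was at 66.3 (56.5 to 77.4) and 63.8 CPM (48.7 to 82.2), intervals that hold its stem class levels of 74.2 and 62.2 CPM. Ephb3 was at 16.4 CPM (11.7 to 22.3) against 21.5 CPM in Hyper-organoids, and at 10.6 CPM (5.10 to 19.6) against 28.1 CPM in -VE-organoids. Ephb6 had 7 UMIs in the Hyper-organoids (2.87 CPM, 1.15 to 5.91) and 2 in the -VE-organoids (2.13 CPM, 0.258 to 7.69). These intervals overlapped, and its stem class levels were 1.17 and 0.0292 CPM. For Ephb4 the levels were 21.7 and 17.0 CPM against 28.6 and 38.0 CPM. Efna1 was at 23.3 and 43.6 CPM against 35.8 and 38.7 CPM. Efnb1 was at 25.8 and 54.3 CPM against 24.4 and 30.4 CPM. The tuft class held 17 cells, and no member is described in it.

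The rest of the family was taken from a fixed list of 13 other Eph receptors and ephrins, of which 9 could be tested, Efna5, Epha10 and Epha3 only through the Hyper-organoids. Of the other 6, 3 rose and none fell at 2-fold or more between Hyper- and ENR-organoids, against 18% of the 14697 genes called in either direction, with a median log2 fold change of 0.88 against -0.05. Epha7, a neuronal guidance receptor, rose from 0.926, 0.944 and 1.29 CPM to 5.50, 4.804 and 5.07 CPM (2.15 ± 0.20, adjusted p = 6.02e-05). The ephrin-A gene Efna2 rose from 1.37, 0.773 and 1.11 CPM to 5.54, 7.22 and 5.78 CPM (2.39 ± 0.25, adjusted p = 0.000100). Efna3 rose from 7.20, 6.50 and 6.14 CPM to 23.5, 17.1 and 14.9 CPM (1.36 ± 0.18, adjusted p = 0.000340). In none of these did the groups overlap. Efna5 had 1, 1 and 0 UMIs in ENR-organoids and 53, 18 and 8 in Hyper-organoids, Epha10 had 5, 4 and 2 against 16, 14 and 6, and Epha3 had 5, 2 and 1 against 6, 15 and 11, and no test is given for them. Epha1 (-0.27), Efna4 (-0.05) and Efnb3 (0.40) were not called, at group means between 0.977 and 24.4 CPM. Against -VE-organoids 3 of the 6 rose, Efna2 (2.22), Epha7 (2.10) and Efna3 (1.71), with 14.1% of the genes called.

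Of 19 genes for proteins that signal with Eph receptors or ephrins, 18 were tested, and 2 rose while none fell by 2-fold or more between Hyper- and ENR-organoids (median -0.15), against 18% of genes called. A further 4 were lower by less than 2-fold. The genes that rose were Grip1, a scaffold that binds ephrin-B tails, from 0.0514, 0.0651 and 0.123 CPM to 5.02, 6.25 and 6.41 CPM (6.09 ± 0.33, adjusted p = 4.44e-06), and Kalrn, a guanine nucleotide exchange factor, from 1.78, 1.80 and 1.46 CPM to 5.66, 5.23 and 4.90 CPM (1.52 ± 0.14, adjusted p = 5.30e-05). Of 17 Wnt/TCF target genes, Apcdd1 and Lef1 passed the filter only through the Hyper-organoids, and of the other 15, 8 rose and none fell by 2-fold or more (median 1.099), with Tnfrsf19 at 5.96, against the same 18%. Of 10 villus enterocyte genes 6 fell and 1 rose (median -2.22), with Sis at -5.37 and Ada at 1.33. Apoa1 was at 172, 228 and 120 CPM in ENR-organoids, and Hyper-organoid replicate 2 (31.4 CPM) stood apart from the other Hyper-organoid libraries (at most 3.27 CPM). Markers of other cell types stood at low levels in the organoids. The 6 endothelial markers summed to 0.306 to 0.767 CPM with Cdh5 at 0 in 7 of 8 libraries, and 1 of them could be tested (0.53). The 6 stromal markers summed to 0.276 to 0.578 CPM in ENR- and -VE-organoids and 0.820 to 1.07 CPM in Hyper-organoids, where Col1a1 and Pdgfra passed the filter through that medium alone, while the third tested was lower by less than 2-fold (-0.73). The 6 leukocyte markers summed to 3.89 to 5.73 CPM with Ptprc at 0 in 7 of 8 libraries, and the 4 tested ranged from -0.87 to 0.37 with no unadjusted p under 0.05. Of 4 tuft markers Pou2f3 (1.21) rose and Avil (-1.51) fell, and the 4 epithelial markers lay between -0.48 and 0.50. The part of these markers in the changes of the members was not tested.

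For the members with a mean of at least 10 CPM, the genes most like them over 45 class sums of the organoid libraries were listed among 9443 candidates, by Pearson r of log2(CPM + 1). The sums share libraries and depth, so r is a description. Efna1 was most like Dgat1 (0.952), Ugt2b5 (0.945) and Rdh7 (0.939), and Efnb2 most like Cyp3a13 (0.926), Slc7a7 (0.918) and Slc3a1 (0.905). Efnb1 was most like Mylk (0.927), Ifngr1 (0.914) and Nr1i3 (0.913). Ephb3 was most like Arhgef28 (0.940), Bcl7a (0.933) and Mcrip1 (0.931), Ephb2 most like Rnf157 (0.898), Arsb (0.885) and Mad2l2 (0.877), Ephb4 most like Pfn1 (0.897), Ide (0.889) and Nol9 (0.885), and Epha2 most like Acadl (0.824), Twf1 (0.817) and Aqp11 (0.803).

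In colonic crypts the comparison of DSS with normal mice had 1 library on each side, so no test was made and no replicate error is known. Epha2 was the member past 2-fold on the log2(CPM + 1) scale, 1 of 9 against 5.08% of 12440 genes. It had 1801 UMIs in the normal library (90.5 CPM, 95% exact Poisson interval 86.3 to 94.7) and 1371 in the DSS library (42.3 CPM, 40.1 to 44.6), a log2 ratio of -1.08 with a pseudocount of 1 CPM. Ephb6 had 30 and 99 UMIs (1.51 and 3.06 CPM), just past 2-fold in plain CPM but with a log2 ratio of 0.69 on the scale with the pseudocount. Efnb2 was at 72.2 CPM in the normal and 55.3 CPM in the DSS library (-0.38), and Epha4 at 8.49 and 11.1 CPM (0.35). Ephb2 (25.2 and 28.7 CPM), Ephb3 (9.09 and 10.9 CPM), Ephb4 (24.4 and 29.0 CPM), Efna1 (38.8 and 39.8 CPM) and Efnb1 (95.8 and 91.6 CPM) had log2 ratios between -0.06 and 0.24. Leukocyte markers summed to 116 CPM in the normal and 228 CPM in the DSS library, and in cells with an Epcam UMI and no Ptprc UMI the Epha2 ratio was -1.05 (94.1 and 44.9 CPM).

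**Figure D5:**
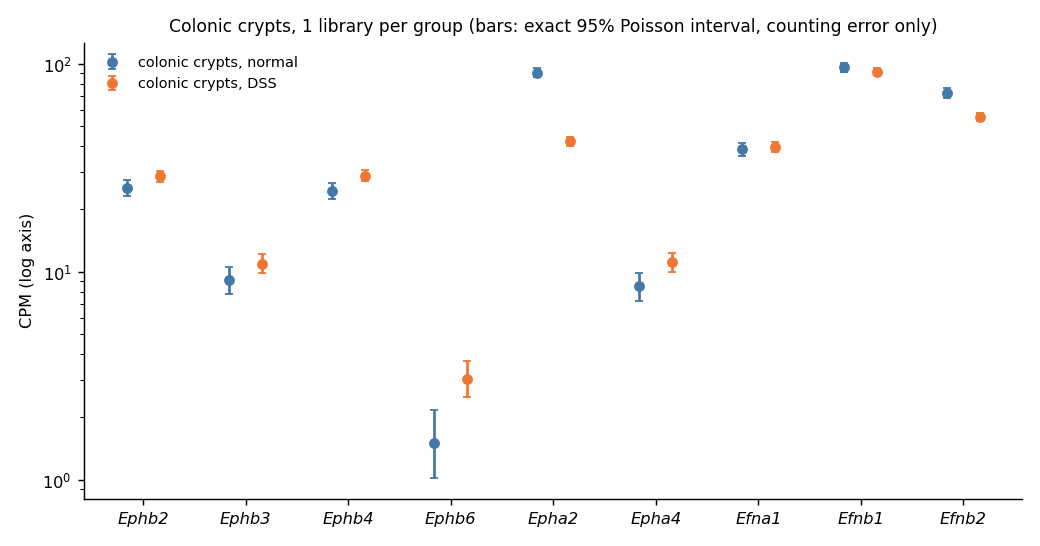
CPM of each member (y axis, log scale) in the normal and the DSS colonic library (x axis: members), 1 library per group. Bars are exact 95% Poisson intervals and cover counting error only. Epha2 is at 90.5 CPM in the normal and 42.3 CPM in the DSS library, while Efna1 is at 38.8 and 39.8 CPM.

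The Epha2 UMIs were spread unevenly over the deposited colonic clusters. Cluster 3, of which 274 of 275 cells came from the normal library, held 710 of that library's UMIs at 118 CPM. Such a cluster may be a library rather than a cell type. Among clusters with at least 50 cells in each library, Epha2 was at 140 CPM in the normal and 69.4 CPM in the DSS library in cluster 1, at 119 and 44.9 CPM in cluster 6, and at 29.5 and 18.0 CPM in cluster 5. In cluster 2, annotated as stem by the authors, it was at 59.7 and 56.9 CPM, with overlapping intervals.

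Over both colonic libraries, the clusters of at least 50 cells were ranked by the level of each member. The 3 ligands were highest in cluster 17, with 53 UMIs of Efna1 (281 CPM), 37 of Efnb1 (196 CPM) and 26 of Efnb2 (138 CPM). Its 95% exact Poisson interval lay above all other clusters for Efna1 (211 to 368 CPM) but overlapped that of cluster 12 for Efnb1 (138 to 271 CPM) and those of clusters 3, 6, 7, 9 and 12 for Efnb2 (90.1 to 202 CPM). All 57 cells of that cluster came from the DSS library, and 77.2% of them held a UMI of Krt20, a keratin of differentiated colonocytes. Ephb2, Ephb3, Epha2, Epha4 and Ephb6 had 0 UMIs there, which at this depth allows up to 19.6 CPM each (upper bound of the 95% exact Poisson interval). Ephb2 was highest in cluster 13 (54.3 CPM) and Ephb4 in cluster 2 (56.2 CPM), where Lgr5 UMIs were found in 14.4 and 20.4% of the cells. Ephb3 was highest in cluster 16 (40.8 CPM), Epha4 in cluster 4 (25.1 CPM) and Ephb6 in cluster 7 (18.7 CPM, 97.3% of cells with a Krt20 UMI). Of the cells of clusters 4 and 7, 230 of 241 and 139 of 147 came from the DSS library, in which Epha4 was at 25.4 CPM in both cluster 2 and cluster 4. Epha2 was highest in cluster 3 (117 CPM), nearly all of whose cells came from the normal library, within which cluster 1 was higher and the interval of cluster 6 overlapped. For Ephb2, Ephb3, Ephb4, Epha4 and Ephb6 the interval of the highest cluster overlapped with those of other clusters. The lowest ligand levels were 0 CPM of Efna1 in cluster 11 and 4.06 CPM of Efnb1 and of Efnb2 in cluster 15, and 93.5 and 68.2% of the cells of these clusters held a UMI of the leukocyte gene Ptprc. Ephb3 and Epha2 were at 0 in clusters 0 and 15 as well, where a Ptprc UMI was found in 88.4 and 68.2% of the cells. Ephb4 was at 0 in clusters 8, 11 and 12. No upper bounds are given for these levels of 0, so low depth and absence cannot be told apart there.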

How the data were processed

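Single-cell libraries (10x 3′ version 3 chemistry) of 8 organoid cultures and 2 colonic crypt samples were analysed from the UMI counts per gene and cell that the authors deposited, unnormalized, with the class of each kept cell. Per the submitters' processing notes the counts came from Cell Ranger 3.0.0 on mm10 and the classes from Seurat 3.1.4. The 25204 kept cells included 1375 under the stated minimum of 1500 genes, and all were used. The pooled table and the library matrices did not differ in any of 2318768 values compared. No doublet caller was run, and an alternative left out the 5% of cells with the highest UMI counts.

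Counts were summed per library, over all cells and per class with at least 20 cells. The 8 organoid libraries were fitted together in edgeR 4.0.16 (R 4.3.3) with its quasi-likelihood test, TMM factors and its filter on low counts, p-values were adjusted by Benjamini-Hochberg over all genes, and a gene was called at 2-fold or more with an adjusted p below 0.05. Genes that 1 medium alone let through the filter were left out of the counts in the Results, a step chosen after the data were seen. They were kept in the counts on how the results depend on the processing. Differences between classes were interactions with the library as a block. The fit over all cells was run on simulated counts for Hyper- against ENR-organoids, judged without a minimum fold. It recovered 92 of 100 genes changed by 2-fold and 100 of 100 changed by 4-fold, with 18 false calls. The class fits, the interactions and the removal of genes let in by 1 medium were not simulated. DESeq2 1.42.0 was an alternative. Exact intervals used scipy 1.17.1 and cover counting error only. For colonic crypts, log2 ratios used a pseudocount of 1 CPM.

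Same-numbered organoid libraries were taken to share a culture series because their library codes share a prefix, and no label names such a series. The series also differ in passage and partly in origin, which cannot be separated from them. Deviations of ENR- and Hyper-organoids correlated at 0.192, 0.170 and 0.436 within series, and at -0.292 to 0.129 between series. The culture series was therefore fitted as a replicate block in an alternative.

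All members are named. Other Eph genes are named at a group mean of at least 1 CPM or when called, other lists by the 2 called genes of largest fold in each direction, likeness by 3 genes per member, and colonic clusters by the highest and lowest level of each member. Pick1 was left out because its symbol is shared by 2 identifiers. The members and lists were chosen with earlier results of these data known. Other alternatives were no filter, no minimum fold, cells thinned to 10000 UMIs, the stem class only and leaving out each library, and 2 were chosen after the data were seen: library totals in place of TMM factors, and culture series 2 and 6 only. The counts of CG dinucleotides, the share calculation and the pooled classes were chosen after the data were seen as well.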

Additional observations from a re-analysis of the deposited data

Results flagged for a closer look

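The change from ENR- to Hyper-organoids differed between classes for several members by a test of the difference itself (interaction term, edgeR, adjusted p under 0.05). Between the TA and the stem class the log2 fold changes differed by -0.85 for Epha2, -0.68 for Efnb2, -0.51 for Epha4, -0.33 for Efnb1, -0.26 for Efna1 and 0.23 for Ephb4, each given as TA minus stem. Between the goblet and the stem class they differed by -1.24 for Efnb2 and -0.49 for Efnb1, goblet minus stem. For Efnb2 the stem class was higher in Hyper-organoids while TA and goblet cells had log2 fold changes of 0.05 and -0.47, neither of which passed the test. By DESeq2 the TA minus stem differences of Epha4 (adjusted p = 0.0952) and Efna1 (adjusted p = 0.109) did not pass. Of all these differences that of Epha2 held in all 15 alternatives run, and the others missed the threshold with cells thinned to 10000 UMIs.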

How the results depend on the processing

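The counts given here include genes that 1 medium alone let through the filter on low counts, Ephb6 among them. Without a minimum fold the calls over all 16037 genes tested numbered 9111, 7629 and 1264 (Hyper- against ENR-, Hyper- against -VE- and -VE- against ENR-organoids). Those of the 9 members numbered 6, 5 and 4, and those of member and class pairs 20, 11 and 3 (in place of 5, 3 and 0). Of the 5 and 3 pairs at 2-fold, only Efnb1 in the goblet class was not a pair that 1 medium alone let through the filter. The others were Ephb6 in the stem, TA and enteroendocrine classes, and Epha4 in the goblet class against ENR-organoids. Calls of differences from the stem class numbered 6 (TA) and 2 (goblet). For Hyper- against ENR-organoids 1 member in place of 2 was called with cells thinned to 10000 UMIs, with library totals and in culture series 2 and 6 only. Thinning also left 1 pair in both Hyper-organoid comparisons (Ephb6 in the TA class, with Efnb1 in the goblet class lost and Ephb6 in the stem and enteroendocrine classes and Epha4 in the goblet class not tested), 266 genes in place of 409 between -VE- and ENR-organoids, 0 goblet differences and 1 enteroendocrine difference. Without a filter there were 6 pairs against -VE-organoids, 2 goblet differences and 1 enteroendocrine difference. Library totals gave 2 and 1 such differences, and leaving out the highest-UMI cells gave 2 goblet differences. Culture series 2 and 6 only gave 232 genes between -VE- and ENR-organoids.

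Leaving out 1 library at a time gave 1 to 3 members between Hyper- and ENR-organoids (1 without Hyper-organoid replicate 1 or ENR-organoid replicate 3), 1 to 2 goblet differences (2 without Hyper-organoid replicate 1 or ENR-organoid replicate 2), 0 to 1 enteroendocrine differences (1 without ENR-organoid replicate 1 or Hyper-organoid replicate 3), and 96 to 519 genes between -VE- and ENR-organoids (96 without -VE-organoid replicate 2, 151 and 252 without ENR-organoid replicates 2 and 1, 232 without replicate 3).

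With the fit of the stem class in place of that of all cells, signs turned for Ephb3 (-0.38) and Efnb2 (0.75) against ENR-organoids, Efnb2 against -VE-organoids (0.21) and Efnb2 between -VE- and ENR-organoids (0.53). Leaving out 1 library, Ephb2 ranged from -0.012 (without -VE-organoid replicate 1) to 0.18 and Epha2 from -0.028 (without Hyper-organoid replicate 1) to 0.24, both for Hyper- against -VE-organoids. Epha4 between -VE- and ENR-organoids turned to 0.017 with the culture series as a replicate block and to 0.00062 in culture series 2 and 6 only, and leaving out 1 library ranged from -0.094 to 0.022 (without -VE-organoid replicate 2), with 0.00058 without ENR-organoid replicate 3. The block left 2, 1 and 0 members called and changed no other call at 2-fold. The causes were not tested. Library totals moved the median of all genes by 0.13 and 0.14 (log2) in the Hyper-organoid comparisons, with 83.1% of calls higher in Hyper- than in ENR-organoids in place of 79.3%. The few UMIs of Ephb6 outside Hyper-organoids limit its folds to intervals or lower bounds, and single colonic libraries give no replicate error.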
